A study of Homo sapiens
Mus musculus with 3 samples.

Results

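The human cytotoxic granule genes are 8 genes of killer lymphocytes. Most of their products are made for, or kept in, the granules with which these lymphocytes destroy other cells. The genes were chosen by name, with earlier results of these data known, and matched by Ensembl identifier: GZMA (ENSG00000145649), GZMB (ENSG00000100453), GZMH (ENSG00000100450), PRF1 (ENSG00000180644), GNLY (ENSG00000115523), NKG7 (ENSG00000105374), CST7 (ENSG00000077984) and CTSW (ENSG00000172543). They are 8 of the 32738 human genes, and of 60736 genes in all, listed in each read table. When a cytotoxic T cell or natural killer cell meets its target, it releases these granules towards it. Perforin, the product of PRF1, then opens the target's membranes, and the granzymes, serine proteases encoded by the GZM genes, enter and cut proteins whose cleavage leads to death. Granulysin (GNLY) damages membranes of microbes and cells, NKG7 sits in the granule membrane and takes part in granule release, cystatin F (CST7) inhibits the cysteine proteases that activate granzymes, and cathepsin W (CTSW) is a cysteine protease found mainly in cytotoxic lymphocytes.

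Transcripts of single cells had been sequenced with the ICELL8 cx, an instrument that dispenses cells into barcoded nanowells and images the wells. The starting material was always the same mixture, in equal parts, of 4 cultured lymphocyte lines: Jurkat, a human CD4+ T-cell line, TALL-104, a human CD8+ T-cell line with cytotoxic activity, EL4, a mouse T-cell line, and IVA12, a mouse B-cell line. The official kit, which counts 3′ ends, gave 2 libraries of the group 3′ DE. A modified protocol, in which reverse transcription is separated from cDNA amplification so that molecules can be counted by unique molecular identifiers (UMIs), gave 1 library, the group 3′ DE-UMI. Per the study's sample list, 3′ DE library 1 came from one mixture preparation and the other libraries both came from another, so p-values below measure only the spread between these libraries. No treatment was given, and each line is a leukemia or lymphoma line or another immortal line, not a primary lymphocyte.

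The libraries held 35581264 reads in 1704 wells (3′ DE library 1), 109702878 reads in 1518 wells (3′ DE library 2) and 44883618 reads in 1560 wells (3′ DE-UMI). After wells with few reads or genes and wells of mixed species were set apart, 533, 484 and 557 human wells remained, in the order of libraries given here and used throughout. Human wells were clustered on all human genes except the 8 granule genes. Human cluster 1 held 409, 448 and 529 wells, and human cluster 2 held 124, 36 and 28 wells. Genes are listed by Ensembl identifier without symbols, and only the 8 members could be named, so the labelled lines could not be checked against their markers and no cluster is named after a line. Wells of human cluster 2 were shallow, with medians of 4525.5, 9277 and 5228 human reads, against 25413, 36444.5 and 17403 in human cluster 1.

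The libraries share well barcodes, and this touches every class of wells. Between 469 and 539 barcodes occurred in both libraries of a pair. Of 24 barcodes of human cluster 2 in 3′ DE library 1 that also occurred in 3′ DE library 2, 9 fell in human cluster 2 there. Another 14 were left out for few reads or few genes, 1 was mixed, and 0 fell in human cluster 1, which held 30.6% of the shared barcodes. Of the shared barcodes of human cluster 1 in 3′ DE library 1, 64.3% fell in human cluster 1 in 3′ DE library 2, and of those of mouse wells 66.4% were mouse there, against 48.8% of all shared barcodes. Of 24 cluster 2 barcodes also found in the 3′ DE-UMI library, 6 fell in human cluster 2 there and 18 were left out for few reads or few genes. The well class was thus not independent between libraries for these barcodes, and results are also given for the 84, 23 and 14 wells of human cluster 2, and the 210, 199 and 259 wells of human cluster 1, whose barcode occurred in 1 library only.

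Reads of the granule genes were concentrated in human cluster 2 in each library. Human cluster 2 held 5.83%, 2.92% and 1.23% of the human reads in human wells, but 68.6%, 62.6% and 55.4% of the reads of the 8 members. The members made up 0.338%, 0.182% and 0.362% of the human reads of cluster 2, against 0.00957%, 0.00326% and 0.00361% in cluster 1. GZMA alone made up 72.1%, 63.1% and 82.3% of member reads in cluster 2 and 79.0%, 59.9% and 81.1% in cluster 1.

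In human cluster 2, at least 1 member was detected in 115 of 124 wells (92.7%, exact 95% interval 86.7 to 96.6), 31 of 36 wells (86.1%, 70.5 to 95.3) and 26 of 28 wells (92.9%, 76.5 to 99.1). In human cluster 1 this held for 131 wells (32.0%, 27.5 to 36.8), 142 wells (31.7%, 27.4 to 36.2) and 57 wells (10.8%, 8.27 to 13.7). Mouse wells, which should lack human transcripts, gave the background: 12 of 922 wells (1.30%), 51 of 773 wells (6.60%) and 6 of 700 wells (0.857%). The intervals of cluster 2 and cluster 1 did not overlap in any library. These intervals cover only the counting error of wells. The intervals of read levels and their ratios below treat reads as independent molecules, which they are not, so those intervals are too narrow. With 3′ DE-UMI, for example, the 561 GZMA reads of cluster 2 came with 29 UMIs.

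**Figure D1:**
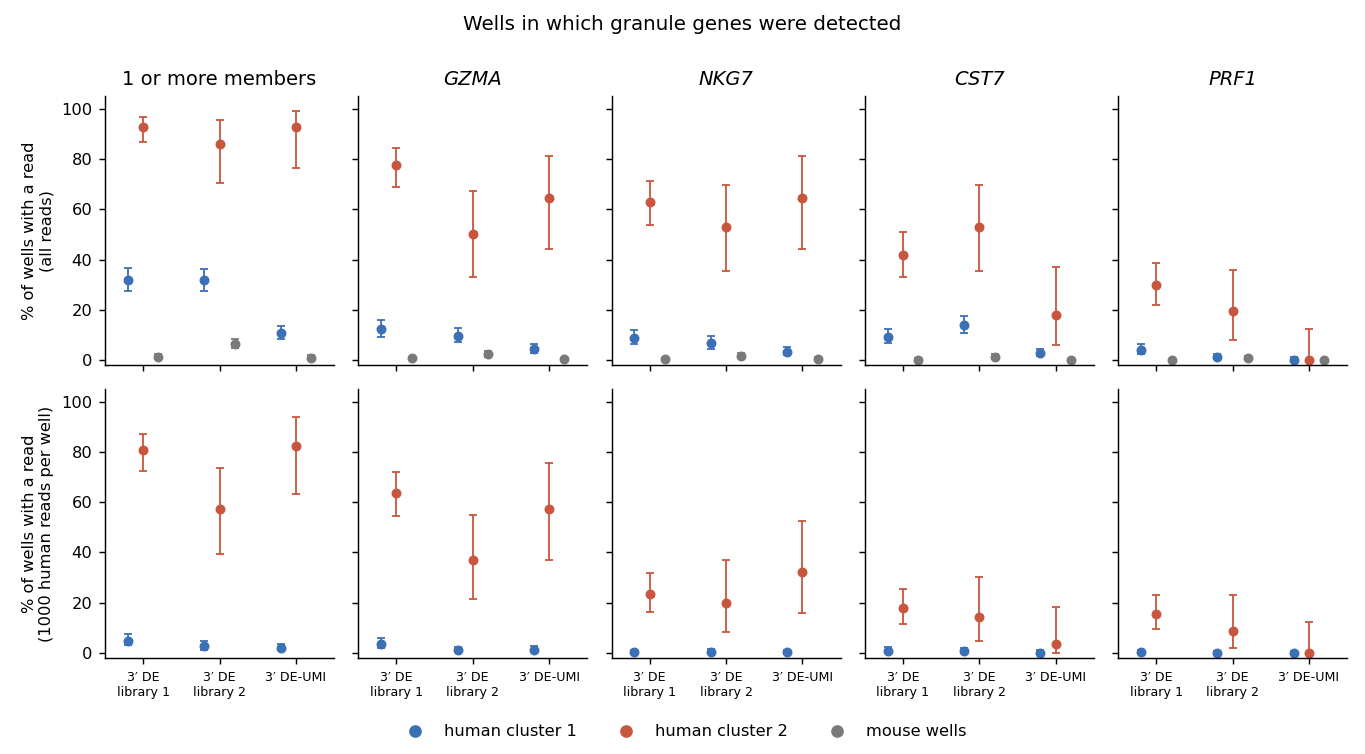
Share of wells with at least 1 read of any of the 8 members and of GZMA, NKG7, CST7 and PRF1, by library (x axis), for all reads (upper row) and after each human well was thinned to 1000 human reads (lower row). Points are shares of wells in percent and bars are exact 95% binomial intervals. Human cluster 2 lies above human cluster 1 in every panel except PRF1 in the 3′ DE-UMI library, where no well of cluster 2 had a read, and mouse wells lie at or below 6.60%.

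The wells of human cluster 2 were the shallower ones, so the shares were also compared at equal depth. After each well was thinned to 1000 human reads, at least 1 member was detected in 80.6%, 57.1% and 82.1% of cluster 2 wells and in 4.89%, 2.68% and 2.08% of cluster 1 wells (1 well of cluster 2 in 3′ DE library 2 was too shallow and was left out). Among wells whose barcode occurred in 1 library only, the unthinned shares were 95.2%, 82.6% and 85.7% in cluster 2 and 30.5%, 33.2% and 10.4% in cluster 1. In cluster 1 detection moved with depth. When its wells in 3′ DE library 2 were divided by depth into 3 sets of like size, 12.1%, 31.5% and 51.3% of the wells had a member, at median depths of 9377, 36391 and 147484 human reads. In 3′ DE library 1 the same division gave 27.2%, 32.4% and 36.5%, with overlapping intervals, at medians of 13073.5, 25411.5 and 35624. With 3′ DE-UMI it gave 2.84%, 10.2% and 19.3%.

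Several members were often found in the same well of human cluster 2. At least 2 members were detected in 73.4%, 52.8% and 39.3% of its wells, against 4.89%, 6.25% and 0.567% of cluster 1 wells. At least 3 were detected in 45.2%, 25% and 14.3% of cluster 2 wells. The highest number in any well was 5, reached in 3 wells of 3′ DE library 1.

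**Figure D2:**
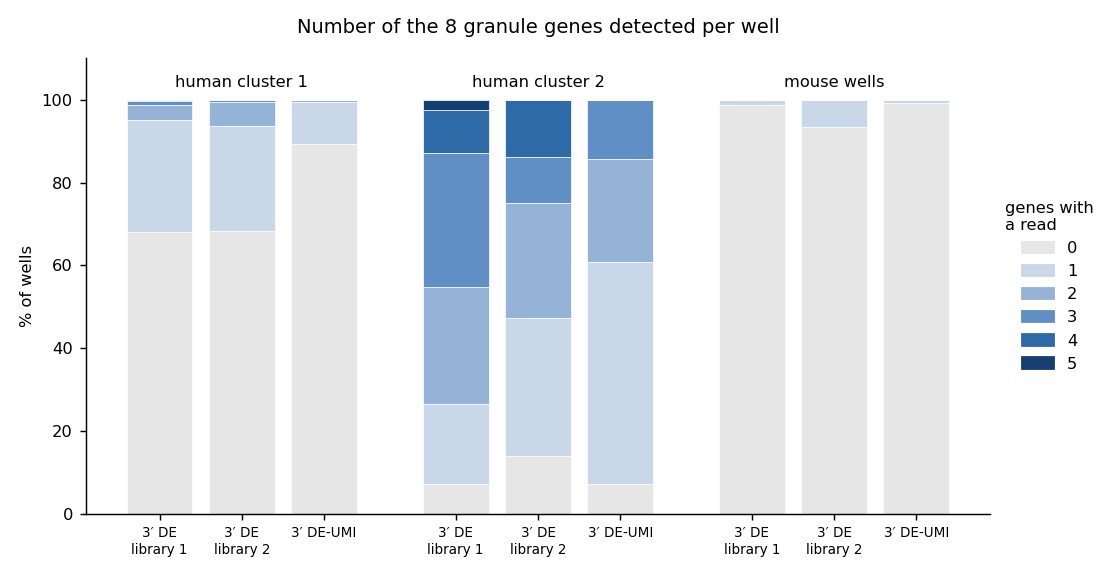
Number of the 8 granule genes with at least 1 read in a well, as stacked percentages of the wells of each class and library. In human cluster 2 the share of wells without any member was 7.26%, 13.9% and 7.14%, whereas in human cluster 1 most wells had none.

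Levels are given as CPM, reads of a gene per 1000000 human reads, in the summed reads of each class. They compare a gene with itself between classes, and levels of different genes are not ranked. The first group is the granzymes. GZMA, granzyme A, a protease that cuts after basic residues, reached 2437 CPM (2316 to 2562), 1147 CPM (1092 to 1205) and 2977 CPM (2735 to 3233) in human cluster 2. In human cluster 1 it was at 75.5, 19.5 and 29.3 CPM. The levels of the 2 clusters did not overlap over the libraries, and the ratio was 32.3, 58.7 and 102. A single well held 586 of 1602 GZMA reads of cluster 2 in 3′ DE library 2.

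The human reads found in mouse wells held GZMA at 95.4 CPM (45.8 to 176), 88.5 CPM (69.9 to 110) and 16.3 CPM (1.97 to 58.7). On this scale GZMA in cluster 1 was below its level in the stray human reads of mouse wells in both 3′ DE libraries, and above it but within its interval in the 3′ DE-UMI library. Mouse wells held few human reads, with medians of 75.5, 522 and 96.5 a well. Per 1000000 reads of both species, GZMA was at 73.2, 19.0 and 28.9 in cluster 1 and at 0.452, 1.38 and 0.0704 in mouse wells. The order thus turned with the scale, and the part of stray RNA in the GZMA reads of cluster 1 was not tested. In cluster 1, 1 well of 3′ DE library 1 held 310 of 769 GZMA reads, with no read of another member.

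GZMA was detected in 96 wells (77.4%), 18 wells (50%) and 18 wells (64.3%) of cluster 2, in 12.2%, 9.60% and 4.35% of cluster 1 wells, and in 0.651%, 2.33% and 0.286% of mouse wells. GZMB, granzyme B, which cuts after aspartate and activates caspases, was seen in human cluster 2 only in 3′ DE library 1. There it had 58 reads in 9 wells (92.1 CPM, 69.9 to 119), and GZMA was detected in all 9. Cluster 1 of the same library had 0 GZMB reads in 409 wells. That allows up to 0.733% of wells to have a read and sets no limit on cells expressing the gene. GZMB in cluster 2 was at 312 times the level of 3 reads over the summed cluster 1. This ratio leaves out the counting error of the 58 reads, of which 20 came from 1 well. In 3′ DE library 2 GZMB had 0 reads in cluster 2 and 5 reads in cluster 1, and in the 3′ DE-UMI library it had 0 reads in any well.

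GZMH, granzyme H, a chymotrypsin-like granzyme that lies close to GZMB in sequence and in the genome, was rare. It had 11 reads, all in 1 well, in cluster 2 of 3′ DE library 1, and 0 reads in cluster 2 of the other libraries. In cluster 1 it had 13, 66 and 4 reads, of which 47 in 3′ DE library 2 came from 1 well. Whether reads of these related genes were assigned to the wrong one was not tested, so both counts are uncertain. Of the 9 wells of cluster 2 with GZMB, 0 had a GZMH read, and the wells with 11 and 47 GZMH reads had 0 GZMB reads.

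**Figure D3:**
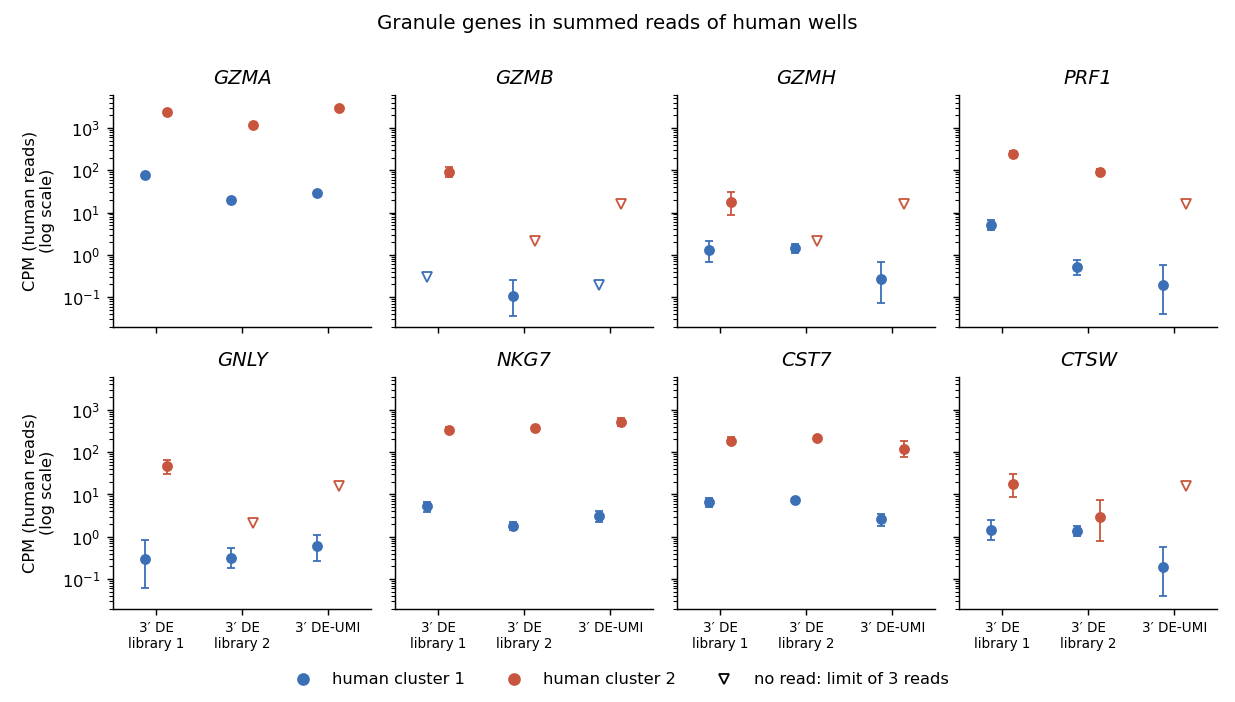
CPM of each of the 8 members among human reads (log axis) in the summed reads of human cluster 1 and human cluster 2, by library (x axis). Points are values with exact 95% Poisson intervals, and open triangles mark the level of 3 reads where no read was found. GZMA, NKG7 and CST7 are higher in cluster 2 in 3 of 3 libraries, whereas GZMB, GZMH and GNLY have reads in cluster 2 in 3′ DE library 1 only.

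The second group holds the membrane-damaging proteins. PRF1, perforin, reached 240 CPM (203 to 281) and 91.7 CPM (76.5 to 109) in cluster 2 of the 3′ DE libraries, where 37 and 7 wells had a read. In cluster 1 it was at 5.21, 0.516 and 0.197 CPM. In the 3′ DE-UMI library cluster 2 had 0 PRF1 reads in 28 wells, which allows up to 10.7% of wells to have a read at a median depth of 5228 human reads and sets no limit on cells expressing the gene. PRF1 was thus far above cluster 1 in both 3′ DE libraries, with ratios of 46.0 (33.5 to 64.2) and 178 (114 to 287), and was not detectable in cluster 2 of the other library. The stray human reads of mouse wells held PRF1 at 72.6 CPM (55.9 to 92.7) in 3′ DE library 2, an interval that overlapped that of cluster 2. Of those 64 reads, 47 came from 1 well. Mouse wells of the other libraries had 0 PRF1 reads. Single wells weighed heavily in 3′ DE library 2, where 1 well held 62 of 128 PRF1 reads of cluster 2 and 1 well held 12 of 24 of cluster 1.

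GNLY, granulysin, had 29 reads in cluster 2 of 3′ DE library 1, all in 1 well of 2187 human reads that also held 4 PRF1 reads. Cluster 1 of that library had 3 GNLY reads, giving a ratio of 156 with a counting interval of 48.4 to 801. Cluster 2 of the other libraries had 0 GNLY reads, and their cluster 1 had 15 and 9 reads. For GNLY the excess therefore rested on a single well.

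The third group holds the granule membrane protein NKG7, the protease inhibitor CST7 and the cysteine protease CTSW. NKG7 was at 340 CPM (296 to 388), 365 CPM (334 to 398) and 520 CPM (422 to 634) in human cluster 2. In human cluster 1 it was at 5.21, 1.81 and 3.03 CPM, and the ratio was 65.3, 202 and 172. NKG7 reads were spread over 62.9%, 52.8% and 64.3% of cluster 2 wells, although 1 well of 3′ DE library 2 held 212 of 510 reads there. The stray human reads of mouse wells held NKG7 at 28.6, 36.3 and 40.6 CPM, above its level in cluster 1 and below that in cluster 2 in each library.

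CST7, cystatin F, was at 189 CPM (156 to 226), 212 CPM (189 to 238) and 122 CPM (77.4 to 183) in cluster 2 and at 6.68, 7.55 and 2.57 CPM in cluster 1. Its ratio was 28.3, 28.1 and 47.5, and it was detected in 41.9%, 52.8% and 17.9% of cluster 2 wells. CTSW, cathepsin W, differed less between the clusters. It was at 17.5 CPM (8.72 to 31.2) and 2.86 CPM (0.780 to 7.33) in cluster 2 of the 3′ DE libraries and 1.47 and 1.38 CPM in cluster 1, with 0 reads in cluster 2 of the 3′ DE-UMI library. The CTSW ratio was 11.9 (4.92 to 27.6) in 3′ DE library 1 and 2.08 (0.550 to 5.59) in 3′ DE library 2, where its interval included equality. Mouse wells of 3′ DE library 2 held CTSW at 5.67 CPM (1.84 to 13.2), from 5 reads, above its level in cluster 2 there. Mouse wells of the other libraries had 0 CTSW reads.

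The difference between the clusters was tested in edgeR on reads summed per library and cluster, with the library as a block. This fit left 2 residual degrees of freedom, and edgeR took the spread of each gene partly from other genes. Its p-values therefore do not measure the spread of the single gene between libraries alone. The fit gives no SE, so each edgeR SE here is the absolute log2 difference divided by the square root of the F statistic. In all, 126 of 9425 genes tested (1.34%) were higher in cluster 2 at an adjusted p under 0.05. Of the 8 members, 3 were called higher, 1 was tested and not called, and 4 did not pass the filter on low counts. The filter left out the members with the fewest reads, and PRF1 passed it only with its reads in cluster 2. This count is therefore no support for a difference over the members. GZMA was higher by 5.61 on the log2 scale (SE 0.56, edgeR adjusted p = 2.32e-20, higher in 3 of 3 libraries). NKG7 was higher by 6.78 (SE 1.22, edgeR adjusted p = 4.92e-06, 3 of 3 libraries) and CST7 by 4.92 (SE 1.58, edgeR adjusted p = 0.0483, 3 of 3 libraries). The log2 difference of PRF1 was 5.50 (SE 2.26), in 2 of 3 libraries, and was not called (edgeR adjusted p = 0.182). GZMB, GZMH, GNLY and CTSW did not pass the filter and were not tested.

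Over all genes tested, the log2 difference had a median of -1.72 with TMM scaling and -1.56 with RLE scaling, so values are also given relative to it. The 4 tested members lay 7.33 (GZMA), 8.50 (NKG7), 6.64 (CST7) and 7.22 (PRF1) above that median. GZMA was called higher in every alternative run. NKG7 was not called when 3′ DE library 1 was left out (edgeR adjusted p = 0.292). CST7 was not called without 3′ DE library 1 (0.531) or without 3′ DE library 2 (0.636), and, in wells whose barcode occurred in 1 library only, its adjusted p was 0.273, whereas GZMA (log2 5.33, 1.10e-06) and NKG7 (log2 6.56, 0.0154) were still called in those wells. PRF1 was called by DESeq2 (adjusted p = 0.000488) and by edgeR without the 3′ DE-UMI library (0.000967).

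**Figure D4:**
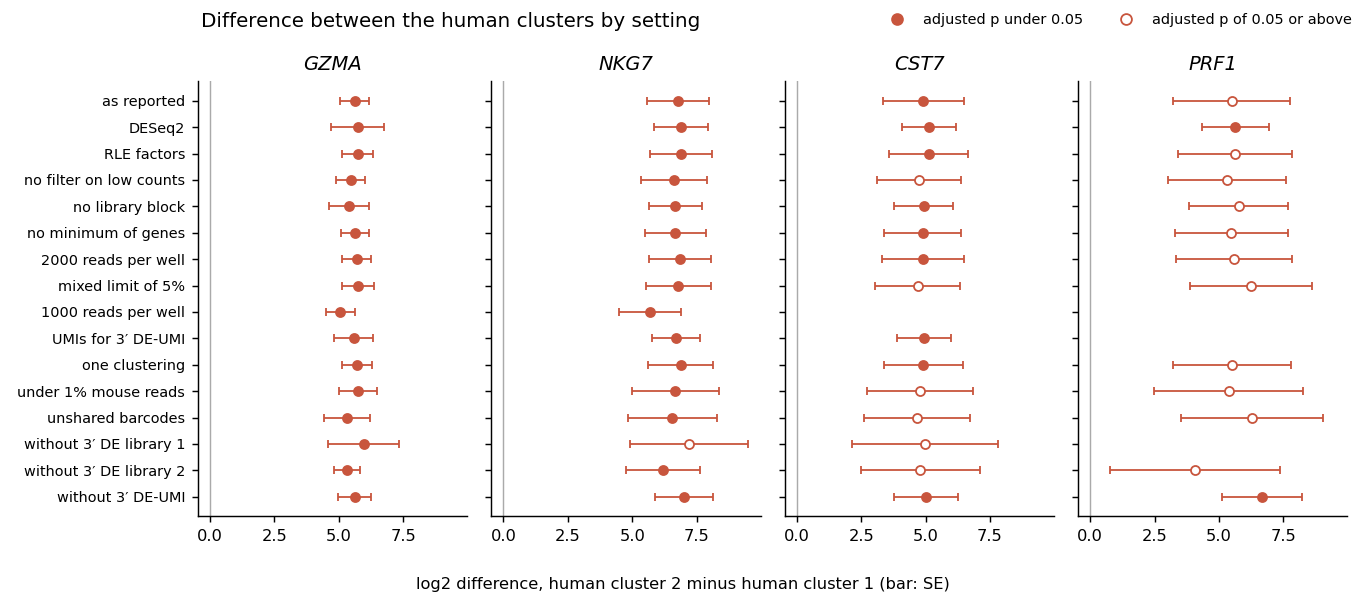
Log2 difference between human cluster 2 and human cluster 1 (x axis, bars are 1 SE) for the 4 members that passed the filter, under each way of processing (y axis). The SE is derived from the F statistic for edgeR and is the tool's own for DESeq2. Filled points had an adjusted p under 0.05. The difference of GZMA stayed between 5.05 and 5.96, whereas the call changed for NKG7 in 1 alternative and for CST7 and PRF1 in several, and points are missing where a gene did not pass the filter.

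Single wells showed how these sums arose. Among wells of human cluster 2 with a GZMA read, the median level was 24.6, 27.4 and 28.3 GZMA reads per 10000 human reads of the well. Among GZMA-positive wells of human cluster 1 the median was 2.13, 1.14 and 2.49. Only 5, 1 and 1 wells of cluster 1 reached the cluster 2 median. The positive wells of cluster 2 ranged from 1.46 to 117, from 5.0 to 54.8 and from 2.81 to 123, so the share of GZMA reads varied more than 10-fold among wells of one cluster in each library. Reads are not molecules: with 3′ DE-UMI, a well of cluster 2 held up to 168 GZMA reads but at most 6 GZMA UMIs. How much of this range lay between cells was not tested.

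For NKG7 the median level in positive wells was 4.39, 3.73 and 6.96 NKG7 reads per 10000 human reads in cluster 2 and 0.546, 0.236 and 0.728 in cluster 1. A single read weighs more in a shallower well, so the levels of positive wells start higher in cluster 2, for GZMA as well. At 1000 human reads a well, NKG7 was found in 23.4%, 20% and 32.1% of cluster 2 wells and in 0.244%, 0.446% and 0.378% of cluster 1 wells. GZMA was found at that depth in 63.7%, 37.1% and 57.1% of cluster 2 wells and in 3.67%, 1.12% and 1.32% of cluster 1 wells. Single reads made up many of the detections: 34 of 78 NKG7-positive and 22 of 52 CST7-positive wells of cluster 2 in 3′ DE library 1 held 1 read of the gene, against 2 of 96 for GZMA.

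**Figure D5:**
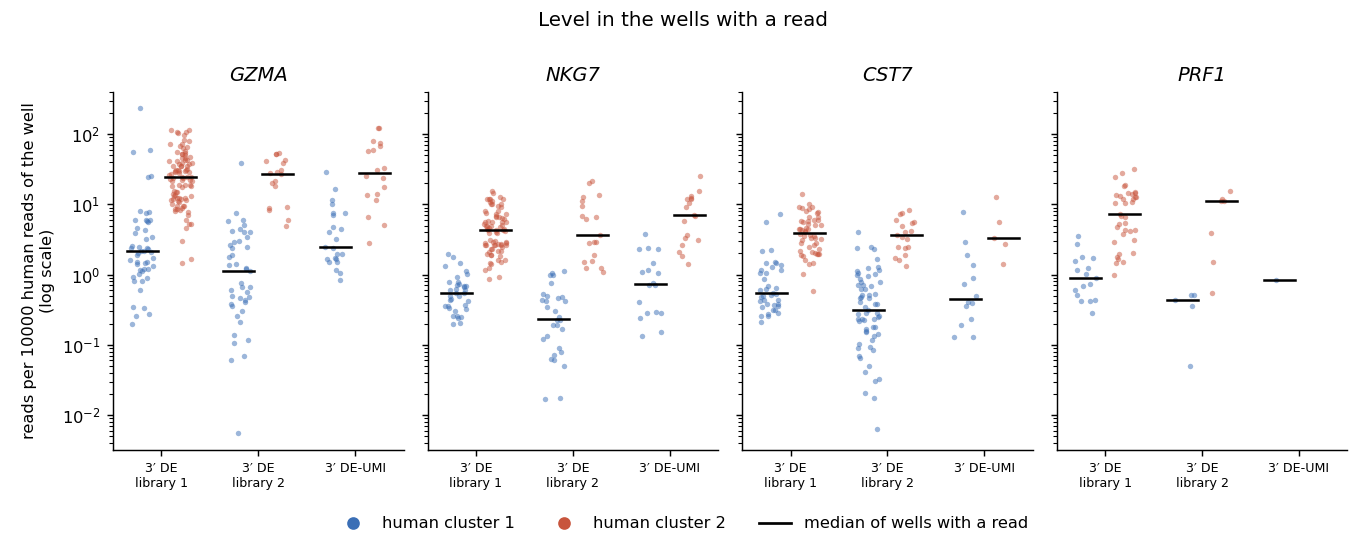
Reads of GZMA, NKG7, CST7 and PRF1 per 10000 human reads of the well (log axis), for wells with at least 1 read of the gene, by library (x axis) and human cluster. Points are single wells and black lines are medians. Positive wells of cluster 2 lie above most positive wells of cluster 1, where wells are deeper and 1 read is a lower level, and PRF1 has no positive well in cluster 2 of the 3′ DE-UMI library.

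In human cluster 2 of 3′ DE library 1, wells with and without GZMA had like depths, with medians of 4606.5 and 4388 human reads. There NKG7 was found in 64 of 96 wells with GZMA (66.7%) and in 14 of 28 wells without it (50%). PRF1 was found in 32 wells with GZMA (33.3%) and in 5 wells without it (17.9%). CST7 was found in 42.7% and 39.3% of them. In 3′ DE library 2, PRF1 was found in 6 of 18 wells with GZMA and 1 of 18 without, CST7 in 12 and 7, and NKG7 in 9 and 10. With 3′ DE-UMI, wells holding GZMA were deeper (median 5673 against 3937 human reads), NKG7 was found in 11 of 18 wells with GZMA (61.1%) and 7 of 10 without (70%), and CST7 in 4 and 1. These shares are a description of wells of single libraries, and no gene pair was tested.

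Mouse reads in human wells moved with the library. Wells with under 1% mouse reads made up 93.5%, 30.6% and 53.6% of human cluster 2 and 58.2%, 14.3% and 41.0% of human cluster 1. In such wells GZMA was at 2489, 1069 and 3138 CPM in cluster 2 and at 83.7, 10.7 and 21.0 CPM in cluster 1, so that the difference was as large without wells of more mouse reads (log2 5.74, edgeR adjusted p = 6.16e-12). NKG7 was also called higher in these wells (log2 6.67, edgeR adjusted p = 0.00682), and CST7 was not (log2 4.78, edgeR adjusted p = 0.306).

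The second comparison was between the protocols, with 1 3′ DE-UMI library against 2 3′ DE libraries, which left 1 residual degree of freedom and treated the lone library as varying like the others. In human cluster 1, 1354 of 13596 genes tested (9.96%) were called lower with 3′ DE-UMI and 1124 (8.27%) were called higher by edgeR. Of the members, 6 were tested and 0 were called, 0 had an unadjusted p under 0.05, and DESeq2 also called 0. The closest was PRF1, with a log2 difference of -3.63 (SE 1.89, edgeR adjusted p = 0.197). The mixture preparation was no term in this fit. Against 3′ DE library 2 alone, which came from the same preparation, the log2 difference was 0.82 for GZMA and 1.03 for NKG7, against -0.47 and 0.10 with both 3′ DE libraries, as values with no test.

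In human cluster 2, 131 of 5973 genes tested (2.19%) were called in either direction. Of the members, 7 were tested and 0 were called by edgeR or DESeq2, and 1, PRF1, had an unadjusted p under 0.05. Its log2 difference was -9.83 (SE 3.50, edgeR adjusted p = 0.0967), a fitted value against a library with 0 reads that depends on the prior count. GZMA differed by -0.05 on the log2 scale (SE 0.84, edgeR adjusted p = 0.972), although its 2977 CPM lay above both 3′ DE libraries. These CPM carry no TMM factor, whereas the fit does and uses clusters made from part of the genes. The cause of this gap was not tested. The sign of the small log2 difference of GZMA turned with RLE scaling (0.12), and the median of all genes tested was -5.86. The spread between both 3′ DE libraries was wide for GZMA, at 1792 ± 912 CPM (SD, n = 2).

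An interaction term asked whether the difference between the clusters was the same under both protocols. It was called for 69 of 9425 genes (0.732%) and for 0 of the 4 members tested by edgeR, with adjusted p from 0.948 to 1, 0 members at an unadjusted p under 0.05 and 0 by DESeq2. The interaction was 0.49 (SE 0.86) for GZMA, -0.21 (SE 1.54) for NKG7 and 0.10 (SE 2.03) for CST7 on the log2 scale. For PRF1 it was -10.96 (SE 7.91, edgeR adjusted p = 0.948), a fitted value that depends on the prior count because PRF1 had 0 reads in cluster 2 with 3′ DE-UMI. These SE are derived from the F statistic. At this size, a difference between the protocols of several log2 units in NKG7 or CST7 could have been missed.

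PRF1 and GZMB were nearly or wholly without reads in the 3′ DE-UMI library. Over all wells, including mouse, mixed and left-out ones, PRF1 had 257, 273 and 3 reads, or 20.5, 5.34 and 0.188 CPM of all human reads. GZMB had 61, 26 and 0 reads. GZMA had 3171, 3261 and 1367 reads, or 253, 63.7 and 85.8 CPM. With 1 library of the modified protocol, a difference of the protocol and a difference of this library cannot be told apart.

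The 3′ DE-UMI library also had a table of UMI counts, which listed 13432 human genes and 6 of the 8 members. PRF1 and GZMB were not listed. Reads and UMIs were counted by different pipelines, so reads per UMI is a ratio of both tables. In human cluster 2, GZMA had 561 reads in 18 wells and 29 UMIs in 17 wells, or 19.3 reads per UMI. NKG7 had 98 reads in 18 wells and 24 UMIs in 16 wells, or 4.08 reads per UMI, and CST7 had 23 reads and 6 UMIs, each in 5 wells. For all human genes the cluster had 14.1 reads per UMI.

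Counted as UMIs per 1000000 human UMIs, GZMA was at 2168 (1452 to 3113) in cluster 2 and 29.2 (19.96 to 41.2) in cluster 1. NKG7 was at 1794 (1149 to 2669) and 14.6 (8.34 to 23.7), and CST7 at 448 (165 to 976) and 13.7 (7.65 to 22.6). The other listed members, CTSW, GNLY and GZMH, had 0 UMIs in cluster 2 and 3, 1 and 1 UMIs in cluster 1. With UMIs in place of reads for this library, edgeR called 181 of 6860 genes tested higher in cluster 2. Of the members, only GZMA, NKG7 and CST7 were tested, and all 3 were called. NKG7 and CST7 passed the filter on low counts only with their counts in cluster 2. This count of calls is therefore no support for a difference over the members. The log2 differences were 5.57 for GZMA (edgeR adjusted p = 3.89e-11), 6.70 for NKG7 (1.34e-10) and 4.94 for CST7 (0.000143).

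Genes with a like pattern were sought among 996 other human genes of at least 50 CPM in every sum of human cluster 2, by Pearson's r of log2(CPM + 1) with the mean of the members over the 6 sums. The highest were ENSG00000115216 (r = 0.989) and ENSG00000145779 (r = 0.985), whose symbols are not given in the files. ENSG00000115216 was at 127, 71.6 and 58.4 CPM in cluster 2 and 34.8, 28.9 and 31.4 CPM in cluster 1. The members themselves had r from 0.657 (GZMH) to 0.860 (CST7) with their mean. The 6 sums come in pairs from 3 libraries and differ in depth by cluster, so these values describe likeness only.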

How the data were processed

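The deposited read tables hold raw counts of reads for every gene in every well, which the authors made by aligning to human (hg19) and mouse (mm10) sequences together. For the 3′ DE-UMI library the authors also deposited UMI counts. The submitters' processing notes name STAR 2.7.0b, STAR 2.4.2a and Cell Ranger 1.2.0. The methods say that reads were downsampled, and whether the deposited counts come from downsampled reads is not given in the sources used here. The labels give 1684, 1498 and 1465 processed wells, fewer than the barcodes in the tables.

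Wells were kept with at least 1000 reads and 200 genes, and called mixed when the rarer species held at least 10% of reads. Doublets within a species were not called. Human wells of all libraries were clustered in scanpy 1.11.5 (1000 variable genes, 20 principal components, 15 neighbours, Leiden resolution 0.1) without the members. For the test of the clusters, human genes were split into 2 sets, and genes of one set were tested in clusters made from the other. These clusterings put 1552 and 1560 of 1574 wells in the same cluster as the single clustering. The members are no part of any clustering, but other genes of the same wells are. Summed counts were fitted in edgeR 4.0.16 (filterByExpr, TMM, quasi-likelihood F-test, two-sided, Benjamini-Hochberg over all human genes tested, threshold 0.05), with DESeq2 1.42.0 as an alternative. The script was tested on simulated data. Shares have exact Clopper-Pearson and CPM exact Poisson 95% intervals, and a count of 0 allows up to 3 reads or wells. Text names all 8 members and at most 2 genes of like pattern. The members and lists were chosen with earlier results of these data known. The fixed lists of cytotoxic genes, line markers and mouse counterparts were not used here, because identifiers could not be paired with symbols.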

Additional observations from a re-analysis of the deposited data

Results flagged for a closer look

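Wells with reads of both species, which no comparison used, had a member detected more often than mouse wells, but were deeper in human reads. Their medians were 5811.5, 2578 and 4018.5 human reads, against 75.5, 522 and 96.5 in mouse wells. By CPM the order differed between members. In 3′ DE library 2, PRF1 was at 23.4 CPM in mixed and 72.6 CPM in mouse wells, whereas GZMA was at 281 and 88.5 CPM. At least 1 member was detected in 84 of 180 mixed wells of 3′ DE library 1 (46.7%), 38 of 175 of 3′ DE library 2 (21.7%) and 9 of 36 of the 3′ DE-UMI library (25%), against 1.30%, 6.60% and 0.857% of mouse wells. GZMA was at 525, 281 and 229 CPM in the human reads of mixed wells, between its levels in human cluster 1 and human cluster 2 in each library.

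Wells left out as too shallow or with too few genes also held member reads. In the 3′ DE-UMI library they held 286 GZMA reads in 12 wells, 15 NKG7 reads and 7 CST7 reads, among 106536 human reads of 267 wells. In 3′ DE library 1 they held 5 GZMA reads among 10101 human reads of 69 wells. The level of GZMA in these wells was 2685 CPM (2382 to 3014) in the 3′ DE-UMI library, against 2977 CPM in human cluster 2, and 495 CPM (161 to 1155) in 3′ DE library 1. NKG7 was at 141 CPM (78.8 to 232) and CST7 at 65.7 CPM in the left-out wells of the 3′ DE-UMI library.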

How the results depend on the processing

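The number of members called higher in human cluster 2 was 3, and from 1 (without 3′ DE library 1) to 4 when 1 library was left out. For all genes called higher there (126), DESeq2 gave 273, wells under 1% mouse reads 55, wells with an unshared barcode 43, and leaving out 1 library 17 to 223. These last well sets were chosen after seeing the data. PRF1 was called by DESeq2 (log2 5.64), and its difference was 4.08 without 3′ DE library 2 (not called) and 6.66 without the 3′ DE-UMI library (called), while without 3′ DE library 1 it did not pass the filter. CST7 was not called without the filter on low counts (4.75, adjusted p 0.126), with a mixed limit of 5% (4.69, 0.110), under 1% mouse reads (4.78) or with unshared barcodes (4.67), and was 4.80 to 5.02 with 1 library left out. NKG7 was 6.20 to 7.21 with 1 library left out. Without the library block GZMA, NKG7 and CST7 were still called (adjusted p 0.0107, 0.0144 and 0.0475). No paired analysis was possible because replicate numbers do not pair the protocols and only 1 library of each came from the same mixture preparation.

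In the protocol comparison of human cluster 1, genes called higher (1124) fell to 673 in wells thinned to 1000 reads, 498 with UMIs and 552 under 1% mouse reads, and genes called lower (1354) to 821, 666 and 710. In cluster 2, genes called (131) fell to 82 with RLE factors, 60 without the filter, 27 with UMIs and 44 with unshared barcodes. The interaction (69) fell to 4 by DESeq2, 21 in thinned wells and 7 with UMIs. No member was called in the protocol comparisons or the interaction under any of these, but differences changed sign. In cluster 1, NKG7 (log2 0.10) was -0.19 at a mixed limit of 5%, -0.022 under 1% mouse reads, -0.35 with unshared barcodes and -0.52 to 1.03 with 1 3′ DE library left out, CST7 (-1.33) was 1.06 and CTSW (-2.70) 1.04 with UMIs, and GZMA (-0.47) was -1.18 to 0.82 with 1 3′ DE library left out. In cluster 2, GZMA (-0.05) was 0.12 with DESeq2, 0.12 with RLE factors, 0.094 without the filter, 0.16 without a minimum of genes and -0.30 to 0.54 with 1 3′ DE library left out, NKG7 (-0.31) was 1.25 with UMIs and -0.31 to 0.025 with 1 library left out, and CST7 (-1.56) was 0.23 with UMIs. The interaction of GZMA (0.49) was -0.063 in thinned wells and -0.82 with UMIs, that of CST7 (0.10) was -1.14 with UMIs, and with 1 3′ DE library left out they were -0.72 to 1.20 (GZMA), -1.78 to 0.87 (NKG7, -0.21 with all libraries) and -0.53 to 0.30 (CST7). Leaving out a 3′ DE library in these protocol and interaction fits left no residual degree of freedom, so these are values with no test. The cause of these changes was not tested.

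Shares of wells with a member depended on depth. Thinned to 1000 reads they were 4.89%, 2.68% and 2.08% in cluster 1 and 80.6% and 57.1% in cluster 2 of the 3′ DE libraries. With at least 2 reads they were 20.5% and 20.8% in cluster 1 of the 3′ DE libraries. Under 1% mouse reads they were 51.6% in cluster 1 and 100% in cluster 2 of 3′ DE library 2. Assigning wells by fixed markers and the limit on mitochondrial reads were not run, because identifiers could not be paired with symbols. With 28 to 124 wells, cluster 2 limits what can be said of GZMB, GZMH, GNLY and CTSW.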
